A study of Homo sapiens with 9 samples.

Results

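The comparison set 3 libraries of MDA-MB-453 cells held in forced suspension with AT-0174 against 3 libraries of the same cells attached to the plate with vehicle, which made 6 of the 9 libraries of the series. MDA-MB-453 is a line of human triple-negative breast cancer cells, recorded as wild type and grown in DMEM with fetal bovine serum. The suspended cells were kept from adhering by a poly-HEMA coat on the plate and received AT-0174, an inhibitor of the tryptophan-degrading dioxygenases TDO2 and IDO1, at 10 µM, and the attached cells grew on uncoated plates and received its solvent DMSO. Both groups were collected after 48 h. Culture and drug differed together, so that within this pair of groups they cannot be told apart, and no attached cells with AT-0174 were among the libraries. The other 3 libraries, suspended cells with DMSO, carry only the culture change and are given beside the results. All groups are biological triplicates of 1 cell line, and the values speak for that line only.

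Epithelial cells that lose contact with matrix lose integrin signaling and usually die by anoikis, and cancer cells that survive detachment keep growing without anchorage. Growth factor and stress signals raise immediate-early genes such as *FOS* and *EGR1* through MAP kinases, whereas YAP with TEAD factors transcribes genes such as *CCN2* in spread, adherent cells. TDO2 opens the kynurenine pathway of tryptophan breakdown, and kynurenine activates the aryl hydrocarbon receptor (AHR). NRF2 transcribes antioxidant and NADPH-producing enzymes once it escapes KEAP1, and type I interferon acts through STAT2 and IRF9 on antiviral genes.

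RNA was sequenced in bulk, and counts were scaled for library size (CPM) with TMM factors, so a level is a gene's share of a library's RNA, and fewer cells of a kind cannot be told apart from less RNA per cell. The 9 libraries held 36649997 to 48019126 counts. Markers fitted the label: the 15 luminal and apocrine breast genes summed to 7429.6 to 7620.1 CPM in the attached libraries and 7978 to 8372 CPM in the suspended AT-0174 libraries, with the luminal factor *FOXA1* at 589 ± 10.3 and 688 ± 12.2 CPM (mean ± SD, n = 3). Endothelial genes, 6 in all, summed to at most 0.376 CPM in any library, the 8 leukocyte genes to at most 2.41 CPM, of which *CD68* was the only gene tested, and of 8 fibroblast genes only *COL1A1* passed the filter on low counts. The 8 fibroblast genes summed to 108 to 145 CPM, with *COL1A1* at 4337 to 5789 counts in a library. Of 9 basal genes, which summed to 10.4 to 13.3 CPM, 3 passed. Transcripts of the mitochondrial genome took 7.56 to 9.32% of counts in attached cells and 3.73 to 5.51% in suspended AT-0174 cells, with attached replicate 3 highest and AT-0174 replicate 1 lowest. The nuclear RNA *MALAT1*, singled out after its values were seen, was at 504, 443 and 924 CPM in attached replicates 1 to 3 and at 207, 378 and 285 CPM in AT-0174 replicates 1 to 3. Attached replicate 3 stood apart in these RNA classes, and results that rest on it are given without it.

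Suspended AT-0174 cells differed from attached vehicle cells at many genes but mostly by little. Of 15528 genes tested, 3724 were called (24.0%; edgeR quasi-likelihood test, Benjamini-Hochberg adjusted p under 0.05, as for every adjusted p here), 1898 of them higher (12.2%) and 1826 lower (11.8%). The median size of a called change was 0.23 on the log2 scale. Below, rises and falls are given as log2 fold changes, with negative values for falls. Among the changes of 2-fold or more, falls outnumbered rises, 141 against 37, and at 1.5-fold or more they did so by 403 against 86. The values of the 3 attached and 3 AT-0174 libraries did not overlap for 39.5% of all genes tested. Leaving out attached replicate 3 gave 2381 calls, and leaving out AT-0174 replicate 1 gave 2239. For scale, suspended vehicle against attached vehicle, which uses the same attached libraries, called 3297 genes (21.2%), and suspended AT-0174 against suspended vehicle called 121 (0.779%). That last count was 63, 68 and 70 without AT-0174 replicate 1, 2 or 3 and 35 with counts rebuilt from TPM, which takes transcript length changes out of the counts. Counts of list members are to be read against the 12.2% and 11.8% of all genes. In the direction in which fewer members of a list moved, the share exceeded these for only a few of the 28 gene lists. They were actin genes (22.9% in each direction), the heat shock response (13.6% lower), the ATF4 response (12.5% lower) and YAP and TEAD targets (12.5% higher). Of the marker lists, luminal and apocrine genes also exceeded it (13.3% lower).

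**Figure D1:**
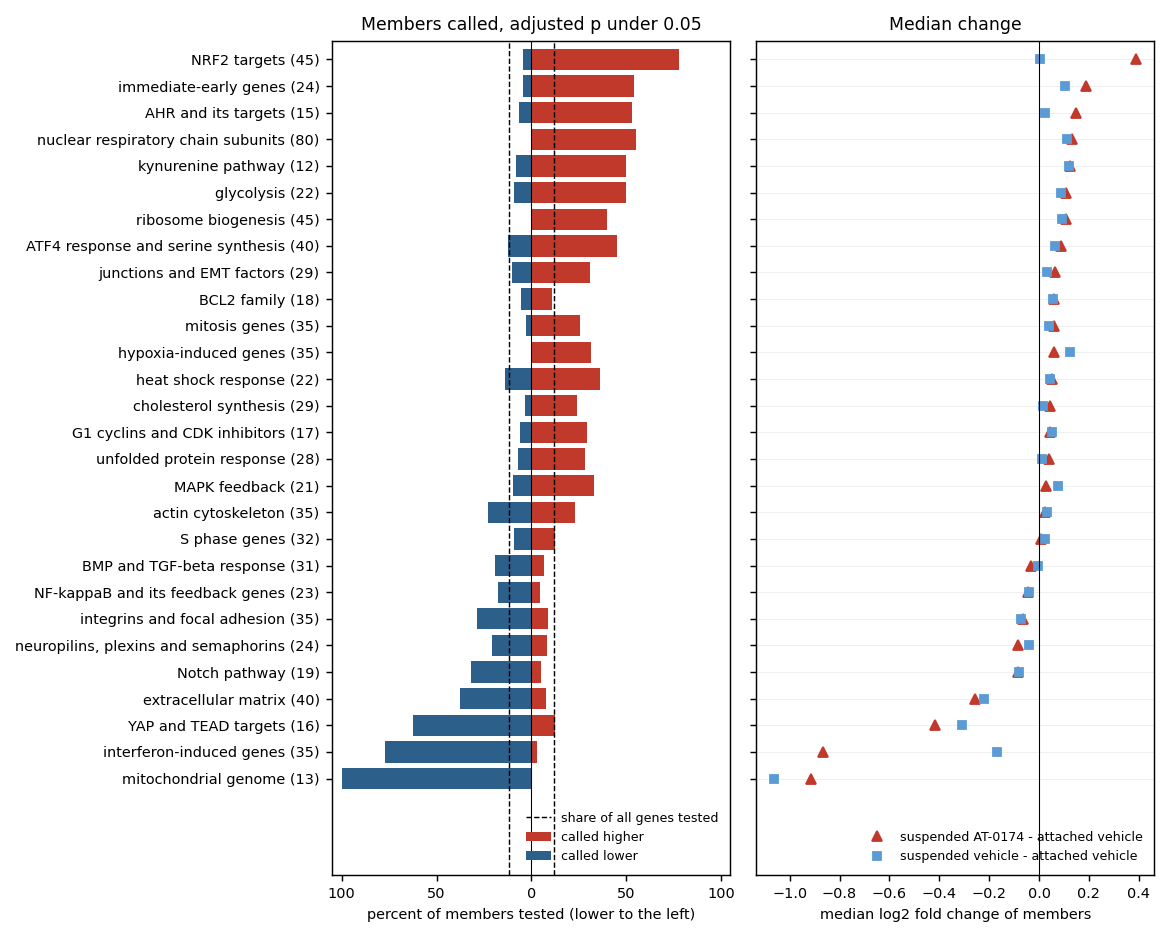
The left panel plots, for 28 gene lists with the number of members tested in brackets, the percent of members called higher (red, to the right) and lower (blue, to the left) in suspended AT-0174 against attached vehicle cells, and the dashed lines mark the shares over all genes tested, 12.2% and 11.8%. The right panel plots the median log2 fold change of each list against attached vehicle cells for suspended AT-0174 (red triangles) and suspended vehicle (blue squares): the markers lie far apart for NRF2 targets (0.39 and 0.00) and interferon-induced genes (-0.87 and -0.17), and within 0.15 of each other for every other list.

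*FOS*, a subunit of the AP-1 transcription factor at chr14:75278826-75282230 (GRCh38, as for all positions here), had the largest rise among genes with a mean of at least 50 normalized counts. It measured 0.706, 0.941 and 0.592 CPM in the attached libraries, 33.4, 42.9 and 26.3 CPM in the suspended AT-0174 libraries and 37.5, 45.4 and 20.9 CPM in the suspended vehicle libraries. All suspended libraries lay far above all attached ones, with or without the drug. The log2 fold change was 5.52 ± 0.39 (SE; adjusted p = 2.11e-06), and between suspended cells with and without AT-0174 it was -0.02 (adjusted p = 0.995). The *FOS* transcript with the most TPM of its gene over the 9 libraries held 23.8, 23.4 and 23.6% of the gene's TPM in the AT-0174 libraries and was listed at 0 in the attached ones.

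The other immediate-early genes rose less. Of 24 tested, 13 were called higher and 1 lower, with a median log2 fold change of 0.19 beside 0.00 over all genes tested. *KLF2*, a Krüppel-like transcription factor, rose from 44.2, 52.6 and 44 to 92.7, 93 and 91.3 CPM, a log2 fold change of 0.98, and was also higher than in suspended vehicle cells (0.35, adjusted p = 0.0119, a call lost on leaving out any 1 of the AT-0174 libraries). *EGR1*, a zinc finger factor induced by ERK, changed by 0.95 and the AP-1 partners *JUNB* and *JUN* by 0.65 and 0.63. *MYC*, the growth-promoting transcription factor, rose from 57.3 ± 3.39 to 86.8 ± 2.15 CPM (0.60, adjusted p = 4.69e-06). *FOSB* had a log2 fold change of 1.03 (adjusted p = 0.0107), but 0.92 with an adjusted p of 0.0505 without attached replicate 3. The growth arrest gene *BTG2* was the member that fell (-0.29).

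Of 21 genes tested on the MAP kinase feedback list, 7 were called higher. The 2 called lower were 9.52%, no more than the 11.8% of all genes. The list holds phosphatase, Sprouty and SPRED genes, and also *ETV4*, *ETV5*, *PHLDA1* and others. The phosphatase gene *DUSP1* rose from 5.28, 5.26 and 5.28 to 12.4, 13.3 and 9.91 CPM (1.17 ± 0.16), and suspended vehicle cells were at 15.6, 17 and 10.7 CPM. *DUSP6*, which acts on ERK, rose by 0.62 and the Sprouty gene *SPRY1* by 0.56, and each was also higher than in suspended vehicle cells (0.21 and 0.23, adjusted p = 0.0134 and 0.0431). The *DUSP6* call between suspended groups was lost without AT-0174 replicate 2, and that of *SPRY1* on leaving out any 1 of the 6 libraries except attached replicate 3. The genes called lower were *SPRED3* and *PHLDA1* (-0.86 and -0.60), both from levels under 4 CPM. *SPRED3* had -0.52 without attached replicate 3, and its call was lost there, without AT-0174 replicate 3 and with counts rebuilt from TPM (-0.28). The *PHLDA1* call was lost with DESeq2, with no filter, with counts rebuilt from TPM and on leaving out any 1 of the 6 libraries except attached replicate 1.

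**Figure D2:**
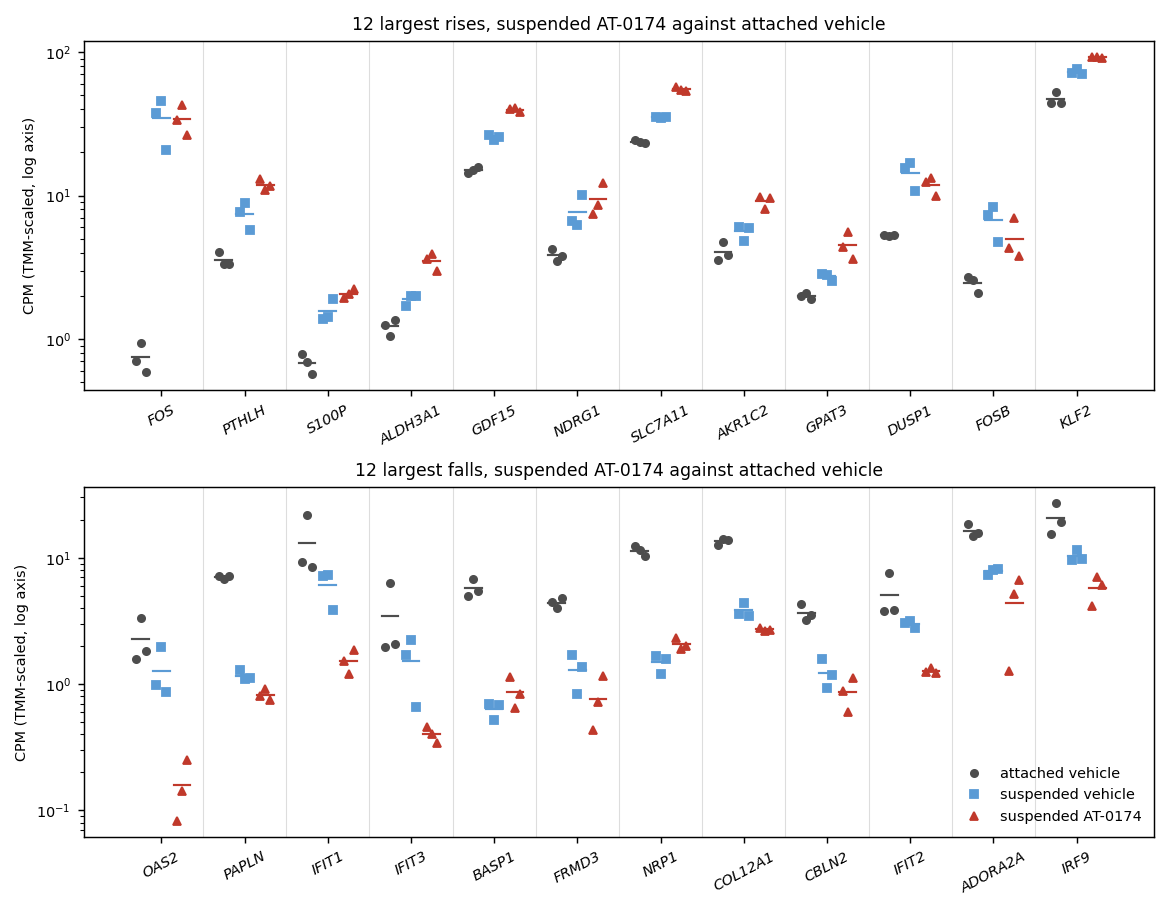
CPM on a log axis in each of the 3 attached vehicle (grey circles), 3 suspended vehicle (blue squares) and 3 suspended AT-0174 libraries (red triangles) for the 12 genes with the largest rise (top) and the 12 with the largest fall (bottom), with short lines at the group means. *FOS* stands at 0.592 to 0.941 CPM when attached and at 20.9 to 45.4 CPM in all 6 suspended libraries, and *OAS2* stands at 0.0828 to 0.249 CPM in the AT-0174 libraries, below all others.

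Among the other large rises, a group of genes stood higher still with AT-0174 than in suspended vehicle cells. *PTHLH*, which encodes parathyroid hormone-related protein, measured 4.05, 3.32 and 3.32 CPM attached and 13, 10.8 and 11.7 CPM in suspended AT-0174 cells, with suspended vehicle at 7.65, 8.84 and 5.71 CPM. Its log2 fold change was 1.73 ± 0.15, and 0.68 between suspended cells with and without drug (adjusted p = 0.0381, a call lost without attached replicate 2 or any 1 of the AT-0174 libraries). *GDF15*, a stress-induced cytokine, went from 14.4, 15.1 and 15.9 to 40.2, 40.6 and 38.1 CPM (1.39 ± 0.052, adjusted p = 1.33e-08), with suspended vehicle in between at 26.5, 24.2 and 25.4 CPM. The groups of *GDF15* did not overlap, and the step between suspended groups, 0.64, was called as well (adjusted p = 1.81e-05).

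*S100P*, a calcium-binding protein, rose by 1.60 from a low level of 0.681 ± 0.109 CPM, *NDRG1*, known as a hypoxia-responsive gene, by 1.29, and *GPAT3*, an enzyme of triglyceride synthesis, by 1.18. For these 3 genes the difference between suspended cells with and without AT-0174 was not called (adjusted p = 0.585, 0.709 and 0.0546).

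NRF2 targets were the list with the highest share of members that rose. Of 45 tested, 35 were called higher and 2 lower, against 12.2% and 11.8% of all genes, and the median log2 fold change was 0.39. In suspended vehicle cells the median of the same list against attached cells was 0.00, and against suspended vehicle cells 30 members were called higher with AT-0174, 23 to 25 without any 1 of the AT-0174 libraries and 18 with counts rebuilt from TPM. Of the 45 tested, 37 had all AT-0174 libraries above all attached libraries, against 20.4% of all genes tested, and 36 had them above all suspended vehicle libraries, against 7.75%.

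*NQO1*, the quinone reductase at chr16:69706996-69726668, measured 759, 730.1 and 726 CPM attached, 1317, 1282 and 1231 CPM suspended with AT-0174 and 743, 726 and 739.9 CPM suspended with vehicle. Attached and suspended vehicle values were close, and the AT-0174 values stood above both (0.79 ± 0.033, adjusted p = 1.98e-08). *SLC7A11*, the cystine transporter subunit that feeds glutathione synthesis, climbed in both steps, from 24.3, 23.8 and 23.2 CPM attached through 35, 34.9 and 35.3 CPM suspended to 56.9, 54.7 and 53.9 CPM with AT-0174 (1.21 ± 0.04). The glutathione synthesis subunits *GCLM* and *GCLC* rose by 0.40 and 0.21.

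*HMOX1*, heme oxygenase, which breaks down heme, moved in opposite directions in the 2 suspended groups. It was at 52.4, 45.6 and 46.4 CPM attached, 35.9, 37 and 38.5 CPM suspended with vehicle and 76.2, 68.3 and 78.3 CPM with AT-0174, so that suspended vehicle was below and suspended AT-0174 above the attached libraries. The log2 fold change was 0.63 against attached cells (adjusted p = 3.28e-05) and 1.00 between the suspended groups (adjusted p = 2.5e-06). The ferritin chains *FTH1* and *FTL*, which store iron, rose by 0.57 and 0.16 against attached cells.

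Thioredoxin reductase *TXNRD1*, thioredoxin *TXN*, sulfiredoxin *SRXN1* and peroxiredoxin *PRDX1* rose by 0.53, 0.39, 0.44 and 0.30. The pentose phosphate pathway enzymes *PGD*, *TKT* and *TALDO1* rose by 0.31, 0.41 and 0.32. *TKT* was at 934, 925 and 924 CPM attached and 1239.9, 1218 and 1251 CPM with AT-0174, without overlap. *AKR1C2* (1.18) and *UGT1A6* (0.55) also rose, but each shares sequence or exons with close relatives, and how reads divide among those is uncertain. *ALDH3A1*, an aldehyde dehydrogenase counted among both NRF2 and AHR targets, rose from 1.25, 1.05 and 1.36 to 3.6, 3.92 and 2.99 CPM (1.51 ± 0.17).

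*ABCC3*, a drug efflux pump, went the other way from most of the list. It measured 93.9, 96.4 and 103 CPM attached, 53, 51.5 and 54.6 CPM suspended with vehicle and 82, 85.4 and 79.6 CPM with AT-0174, so that the AT-0174 libraries lay below attached cells (-0.25, adjusted p = 0.00156) but above suspended vehicle cells (0.63, adjusted p = 7.55e-06). *NFE2L2*, which encodes NRF2, had a log2 fold change of 0.01 (adjusted p = 0.856), and its inhibitor *KEAP1* rose by 0.18.

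The antioxidant response element, to which NRF2 binds with small MAF proteins, was searched by its core TGACNNNGC on both strands in the 250 bases before the RefSeq start of each gene. It was in 4 of the 27 members called higher that had a promoter in the table, and in 12.1% of promoters of all genes tested (11% of all in the table). The stretch around the match in *TXNRD1* is shown as an example of a called member with the core outside annotated exons, chosen after its values were seen, with the core in capitals (RefSeq, GRCh38.p14, gene strand, plus).
TXNRD1 (chr12:104215655-104215713): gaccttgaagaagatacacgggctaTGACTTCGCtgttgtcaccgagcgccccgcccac

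Interferon-induced genes were the list with the most falls outside the mitochondrial genome. Of 35 tested, 27 were called lower and 1 higher, with a median log2 fold change of -0.87. Of the 35 tested, 29 had all AT-0174 libraries below all attached libraries, against 19.1% of all genes tested, and 26 had them below all suspended vehicle libraries, against 7.66%. Suspended vehicle cells had a median of -0.17 against attached cells. Against suspended vehicle cells 5 members were called lower with AT-0174, 1 to 2 without any 1 of the AT-0174 libraries, 3 with limma-voom, 12 with DESeq2, 16 with no filter on low counts, 10 without attached replicate 2 and 1 with counts rebuilt from TPM.

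*IFIT1*, an antiviral protein that binds foreign RNA, is at chr10:89392546-89406487. It measured 9.18, 21.7 and 8.42 CPM attached, 7.18, 7.32 and 3.87 CPM suspended with vehicle and 1.53, 1.19 and 1.86 CPM with AT-0174. Attached replicate 2 was far above the other attached libraries, and the AT-0174 libraries were below all others. The log2 fold change was -3.09 ± 0.38 (adjusted p = 0.000202), and -1.99 between the suspended groups (adjusted p = 0.0355), a call lost with limma-voom, with counts rebuilt from TPM and on leaving out any 1 of the AT-0174 libraries. *IFIT3* fell, by a log2 fold change of -3.08 and by -2.32 without attached replicate 2, and *IFIT2* by -2.00.

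*OAS2*, which makes the oligoadenylates that activate RNase L, had the largest fall among genes at that level. It was at 1.59, 3.35 and 1.83 CPM attached, 0.982, 1.97 and 0.865 CPM suspended with vehicle and 0.0828, 0.143 and 0.249 CPM with AT-0174 (-3.82 ± 0.47, adjusted p = 0.000205), and the AT-0174 libraries lay below all 6 others. *OAS2* was also lower than in suspended vehicle cells (adjusted p = 0.0103), a call lost with limma-voom, with counts rebuilt from TPM and without AT-0174 replicate 1 or 2. Its relatives *OAS1*, *OASL* and *OAS3* fell, by log2 fold changes of -1.62, -1.32 and -0.51. *RSAD2*, which encodes the antiviral enzyme viperin, changed by -3.79 from 1.9 ± 1.47 to 0.133 ± 0.127 CPM. *IFI44L* had 11, 18 and 8 counts in the attached libraries, 3, 15 and 7 in the suspended vehicle libraries and 0 in each AT-0174 library, at least 4.91-fold lower against a floor of 3 counts per library, and the list's median stayed at -0.87 with this gene at that bound.

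Factors that carry the interferon signal were among the members that fell. *IRF9*, the DNA-binding partner of STAT2, went from 15.3, 27.1 and 19.2 to 4.16, 7.05 and 6.14 CPM (-1.83 ± 0.20), with suspended vehicle at 9.61, 11.4 and 9.79 CPM. *IRF1* fell, by a log2 fold change of -1.02, and *STAT2* and *IRF7* by -0.28 each. *IFI6* and *ISG15*, a ubiquitin-like protein, fell, by log2 fold changes of -1.63 and -0.72. *MX1* and *USP18*, textbook interferon targets, were not called (-0.24 and -0.02), and *ISG20*, an exonuclease, was the member that rose (0.46).

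Attached replicate 2 held the highest attached value for 26 of the 27 members called lower. Without that library 22 members were called lower and the median was -0.70. What set that library apart was not tested.

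The interferon-stimulated response element, the DNA site of IRF9 and STAT2, was searched by the letters GAAANNGAAA on both strands in the same 250 bases, a motif chosen after the values were seen. It was in 14 of the 22 members called lower that had a promoter in the table, in 1 of 1 called higher (*ISG20*) and in 2.25% of promoters of all genes tested (3.07% of all in the table). The stretches around the matches in 4 genes that fell are shown to let their shared letters be seen, on the gene's strand (minus for *IFI6*, plus for the others; RefSeq, GRCh38.p14), with matches on either strand in capitals. The *ISG15* run in capitals holds 2 overlapping matches.
IFIT1 (chr10:89392482-89392545): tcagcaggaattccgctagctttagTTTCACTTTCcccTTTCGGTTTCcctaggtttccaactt
IFIT3 (chr10:89327816-89327909): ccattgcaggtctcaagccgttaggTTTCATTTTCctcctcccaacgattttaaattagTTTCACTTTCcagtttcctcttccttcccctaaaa
IFI6 (chr1:27672251-27672373): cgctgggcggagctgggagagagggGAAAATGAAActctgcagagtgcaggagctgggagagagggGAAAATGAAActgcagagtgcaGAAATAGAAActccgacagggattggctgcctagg
ISG15 (chr1:1013359-1013424): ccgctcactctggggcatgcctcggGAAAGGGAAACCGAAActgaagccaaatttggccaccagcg

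**Figure D3:**
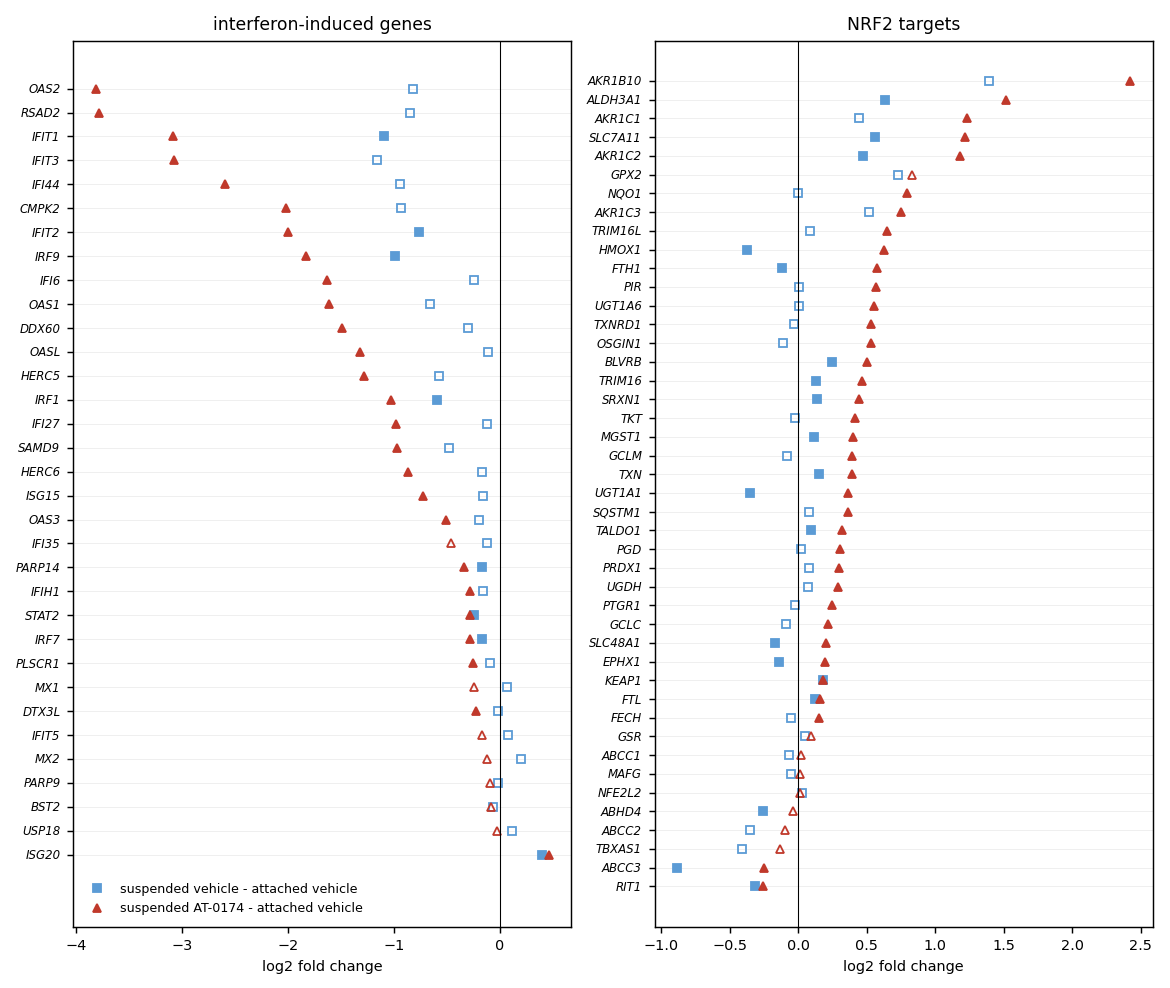
Log2 fold change against attached vehicle cells for most tested interferon-induced genes (left, without *IFI44L*, which had no reads with AT-0174) and NRF2 targets (right), in suspended AT-0174 (red triangles) and suspended vehicle cells (blue squares), filled where the adjusted p was under 0.05. The red markers run from -3.82 (*OAS2*) to 0.46 (*ISG20*) on the left, mostly to the left of the blue ones, and on the right they lie to the right of the blue ones for most genes, as for *NQO1* at 0.79 and 0.00.

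Matrix genes fell more often than they rose, 15 against 3 of 40 tested, with a median log2 fold change of -0.26 that was -0.18 without attached replicate 2, -0.18 without AT-0174 replicate 1 and -0.14 with counts rebuilt from TPM. Of the 40, 21 were among the 3106 genes tested with the longest transcripts, of which 15.6% were called lower. *PAPLN*, the matrix glycoprotein papilin, measured 7.14, 6.81 and 7.18 CPM attached and 0.808, 0.908 and 0.748 CPM in suspended AT-0174 cells, with 1.29, 1.09 and 1.12 CPM in suspended vehicle cells (-3.10 ± 0.14, adjusted p = 3.23e-08). *COL12A1*, a fibril-associated collagen, went from 12.6, 14 and 13.9 to 2.8, 2.65 and 2.67 CPM (-2.32 ± 0.10). For both genes the suspended vehicle libraries lay far below the attached ones, and the further step with AT-0174 was not called (adjusted p = 0.242 and 0.0621).

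The basement membrane laminin chains were called lower: *LAMB1* by -1.66, *LAMC1* by -0.49, *LAMA5* by -0.46 and *LAMB2* by -0.32. *LAMB1* stood at 24.8, 25.3 and 22 CPM attached and 8.28, 7.26 and 7.3 CPM with AT-0174. *COL7A1*, the anchoring fibril collagen, fell, by a log2 fold change of -0.91 and the membrane protease *MMP14* by -0.86, the latter call lost without attached replicate 1 or 3 or AT-0174 replicate 1 or 3. *THBS1*, a matricellular protein, was among the 3 that rose, at 1751 ± 96.5 CPM attached and 2282 ± 90.8 CPM with AT-0174 (0.38), beside *COL9A3* (0.58) and the collagen hydroxylase *P4HA2* (0.31).

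Of integrin and focal adhesion genes, 10 of 35 tested were lower and 3 higher. *FERMT2*, the integrin activator kindlin-2, measured 52.5, 48.5 and 53 CPM attached, 28.4, 25 and 30.5 CPM suspended and 23.2, 20.8 and 24.4 CPM with AT-0174 (-1.17 ± 0.073). The tensins *TNS3* and *TNS2*, which link integrins to actin, fell, by log2 fold changes of -0.80 and -0.66. The integrin chain *ITGA10* was called lower (-0.76, adjusted p = 0.0441), but had -0.40 without attached replicate 3, and the call was lost there, with limma-voom, with only the 6 libraries compared and without any 1 of the AT-0174 libraries. *VCL* (vinculin) and *ZYX* (zyxin) fell, by log2 fold changes of -0.18 and -0.19, whereas suspended vehicle cells had 0.16 and 0.09 against attached cells, and both were lower with AT-0174 than in suspended vehicle cells (-0.34 and -0.28, adjusted p = 3.74e-05 and 0.00159). *TLN1* and *TNS4* were called higher by 0.10 and 0.30, but each call was lost with counts rebuilt from TPM and on leaving out any 1 of the 6 libraries except AT-0174 replicate 2, and *LPP* (0.29) had -0.08 with counts rebuilt from TPM.

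Actin genes split evenly, 8 higher and 8 lower of 35 tested. *BASP1*, a membrane-bound protein of the cell cortex, had one of the largest falls, from 4.94, 6.75 and 5.48 to 1.14, 0.645 and 0.839 CPM, with 0.698, 0.521 and 0.683 CPM in suspended vehicle cells (-2.70 ± 0.21). *TPM2*, a tropomyosin, fell by 1.22. *CNN2*, a calponin, was near 126 CPM attached and 129 CPM suspended with vehicle and fell with AT-0174 to 107 CPM (-0.24; between suspended groups -0.27, adjusted p = 0.000727).

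Targets of YAP and TEAD factors fell in 10 of 16 tested and rose in 2, with a median log2 fold change of -0.42. *TGFB2*, a TGF-β ligand, changed by -2.56 at low levels (1.46 ± 0.296 to 0.243 ± 0.0586 CPM), *CRIM1* by -1.76 (both calls lost with counts rebuilt from TPM, at -1.46 and -0.65), the kinase gene *LATS2* by -0.56, and *PTPN14* and *MYOF* by -0.53 and -0.51. *CCN2*, the most cited target, was called lower (-0.74, adjusted p = 0.036), against -0.11 in suspended vehicle cells, but the call was lost with only the 6 libraries compared, with the replicate block, with counts rebuilt from TPM and without attached replicate 1 or 3 or AT-0174 replicate 1 or 3. *IGFBP3*, which binds insulin-like growth factors, rose from 388, 411 and 298 to 612, 582 and 567 CPM (0.68). With counts rebuilt from TPM, 6 members were called lower.

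*NRP1*, the neuropilin co-receptor for semaphorins and VEGF at chr10:33177492-33336262, was among the largest falls. It measured 12.3, 11.5 and 10.4 CPM attached, 1.68, 1.2 and 1.59 CPM in suspended vehicle cells and 2.3, 1.91 and 2.02 CPM with AT-0174. All suspended libraries lay far below all attached ones (-2.45 ± 0.13, adjusted p = 1.57e-07, and -1.81 with counts rebuilt from TPM), and the suspended groups did not differ past the threshold (0.48, adjusted p = 0.241). In its list 5 of 24 genes fell and 2 rose, among them the plexin *PLXNB1* (-0.35) and the ligands *VEGFB* and *VEGFC* (0.20 and 0.29). The *VEGFC* call was lost with counts rebuilt from TPM and without attached replicate 1 or AT-0174 replicate 3. Without attached replicate 3, AT-0174 replicate 1 or AT-0174 replicate 3, and with counts rebuilt from TPM, 3 members were called lower.

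Other large falls were in genes outside these lists. *ADORA2A*, an adenosine receptor, went from 18.6, 14.7 and 15.8 to 1.26, 5.21 and 6.62 CPM, with AT-0174 replicate 1 far below its group (-1.92 ± 0.34). *FRMD3*, a FERM domain protein, fell, by a log2 fold change of -2.53 and *CBLN2*, a secreted cerebellin, by -2.08. Suspended vehicle cells were between the other groups in all 3, and none differed between suspended groups past the threshold (adjusted p = 0.473, 0.485 and 0.617).

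Genes of cell junctions and factors of the epithelial-mesenchymal transition, held in a joint list, rose more often than they fell. Of 29 tested, 9 were higher and 3 lower. The tight junction claudins *CLDN3*, *CLDN4* and *CLDN7* rose by 0.41, 0.41 and 0.37. *CLDN7* was at 108, 110.2 and 109.6 CPM attached and 145, 142 and 138 CPM with AT-0174, and *CLDN4* was higher than in suspended vehicle cells as well (0.22, adjusted p = 0.0221, lost on leaving out any 1 of the AT-0174 libraries). The desmosomal genes *DSC2*, *DSP* and *DSG2* rose by 0.29, 0.22 and 0.21, and the *DSP* call was lost without attached replicate 3 or AT-0174 replicate 1 or 3. *CDH2*, N-cadherin, fell from 22.3, 21.9 and 22.6 to 14, 15 and 14.5 CPM, with suspended vehicle at 17.1, 17.1 and 18.7 CPM and no overlap between any of the groups (-0.62; between suspended groups -0.28, adjusted p = 0.0275, lost on leaving out any 1 of the AT-0174 libraries). *CDH3*, P-cadherin, fell by 0.95, and *CDH1*, E-cadherin, at 54.1 ± 4.29 and 49 ± 1.11 CPM, missed the threshold (-0.14, adjusted p = 0.0629). *ZEB1*, a repressor of E-cadherin, was below 1 CPM in every library (-0.35, adjusted p = 0.529), and *VIM* had at most 3 counts in any library.

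*TDO2*, the enzyme that AT-0174 inhibits, was higher in suspended AT-0174 cells. The gene, at chr4:155854738-155920406, measured 118, 114 and 112 CPM attached, 176, 168 and 157 CPM suspended with vehicle and 201, 191 and 196 CPM with AT-0174. The groups did not overlap and the values climbed in both steps (0.77 ± 0.042, adjusted p = 2.28e-07; between suspended groups 0.23, adjusted p = 0.0221, lost without AT-0174 replicate 1 or 3). Its leading transcript held 95.8, 97 and 96.1% of the gene's TPM in the attached and 95.6, 92.4 and 93.1% in the AT-0174 libraries.

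Of 12 kynurenine pathway genes tested, 6 were higher and 1 lower. *KMO*, which hydroxylates kynurenine, rose from 8.81, 8.55 and 9.24 to 12.4, 13.3 and 11.9 CPM (0.50 ± 0.082), *KYAT1*, a kynurenine aminotransferase, rose by 1.07 from under 1 CPM (lost without AT-0174 replicate 3), and the amino acid carriers *SLC7A5* and *SLC3A2*, which pair to import tryptophan, rose by 0.38 and 0.16. *SLC7A8*, a related carrier, fell by 0.30. *KYNU* was below 1 CPM in every library (-0.23, adjusted p = 0.57). *IDO1* and *IDO2*, the other tryptophan dioxygenases, had at most 1 count in any library and were not tested. With counts rebuilt from TPM, 3 members were called higher.

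AHR and its targets rose in 8 of 15 tested and fell in 1. *NQO1*, *UGT1A6* and *ALDH3A1*, which also stand on the NRF2 list, led them. *CYP1A1*, the classical target, was at 6.09, 4.32 and 6.03 CPM attached and 5.26, 5.47 and 6.69 CPM with AT-0174, and the groups overlapped (0.08 ± 0.13, adjusted p = 0.709). *CYP1B1* was at 116 ± 4.55 and 128 ± 7.55 CPM (0.15, adjusted p = 0.0287), a call lost with counts rebuilt from TPM (0.07) and without attached replicate 2 or 3 or AT-0174 replicate 1 or 3. *AHR* itself was lower by -0.21 (adjusted p = 0.0255), a call lost with DESeq2, with no filter on low counts, with counts rebuilt from TPM and without attached replicate 1 or 3 or AT-0174 replicate 1 or 2.

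All 13 protein-coding genes of the mitochondrial genome fell, at a median of -0.92 on the log2 scale, and all 13 were called lower whichever single library was left out. *MT-CYB*, the cytochrome b gene, measured 5861, 5679 and 6858 CPM attached, 3088, 2810.3 and 2849 CPM in suspended vehicle cells and 2434, 3517 and 3215 CPM with AT-0174 (-1.01 ± 0.11, adjusted p = 7.5e-05). The changes ran from -1.18 for *MT-ND6* to -0.43 for *MT-ND3*, both complex I subunits. Attached replicate 3 was the highest attached library for all 13. Between the suspended groups *MT-CYB* had a log2 fold change of 0.07 (adjusted p = 0.918).

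Respiratory chain subunits encoded in the nucleus moved the other way. Of 80 tested, 44 were called higher, with a median of 0.13. *ATP5MK*, *COX7A2* and *NDUFB4*, small subunits of ATP synthase, complex IV and complex I, rose by 0.31, 0.30 and 0.24, with *COX7A2* at 62.5, 61.9 and 56.5 CPM attached and 76.9, 74.6 and 71.1 CPM with AT-0174. Without attached replicate 3, 22 were called higher, without AT-0174 replicate 1, 20, and with counts rebuilt from TPM, 24. These are short transcripts, 64 of the 80 among the 3106 genes tested with the shortest transcripts, 0.2 of all, and those 3106 genes had a median log2 fold change of 0.05 with 15.8% called higher and 4.73% lower, against -0.02, 11.5% and 15.6% in the 0.2 with the longest. In the 0.2 with the longest were also 13 of the 35 integrin and focal adhesion genes and 7 of the 16 YAP and TEAD targets. It held 9 of the 29 junction genes too, a list that rose more often than it fell. The part of length in the changes of any list was not tested.

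**Figure D4:**
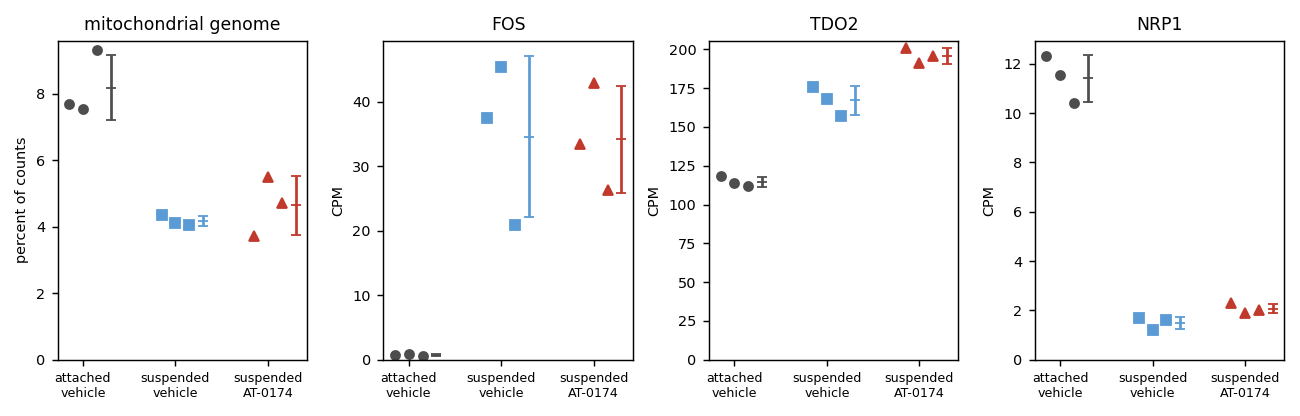
The percent of counts from genes of the mitochondrial genome and the CPM of *FOS*, *TDO2* and *NRP1* in each library, by group, with the mean and SD (n = 3) to the right of the points. The mitochondrial share and *NRP1* are lower and *FOS* and *TDO2* higher in all 6 suspended libraries, and for *TDO2* and *NRP1* the AT-0174 libraries lie above all suspended vehicle libraries.

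The list of hypoxia-induced genes, which also holds the hypoxia-inducible factor genes *HIF1A* and *EPAS1*, had 11 of 35 members called higher. *CA9*, a carbonic anhydrase, had 0.0784, 0.0277 and 0.129 CPM attached and 0.228, 0.263 and 0.453 CPM with AT-0174 (1.95, adjusted p = 0.0212, lost without attached replicate 1 or 2 or AT-0174 replicate 3). The glucose transporter *SLC2A1* rose from 90.4 ± 1.22 to 122 ± 5.51 CPM (0.43), *BHLHE40*, a repressor, by 0.36 and *BNIP3*, a mitophagy receptor, by 0.35. Glycolysis genes rose in 11 of 22 and fell in 2: hexokinase *HK2* rose by 0.35, *ALDOA* by 0.29 and *LDHA* by 0.18, and the enolases *ENO2* and *ENO3* fell, by log2 fold changes of -0.17 and -0.57, calls lost without attached replicate 3 or AT-0174 replicate 1 and, for *ENO2*, AT-0174 replicate 3.

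The ATF4 response, which answers amino acid shortage and other stress, had 18 of 40 members higher and 5 lower. *GDF15* and *SLC7A11*, described above, led, followed by *CEBPB* (0.38), *TRIB3* (0.33) and asparagine synthetase *ASNS* (0.20). The *CEBPB* and *ASNS* calls were lost without AT-0174 replicate 1, and that of *ASNS* also without attached replicate 3. *DDIT3* and *SESN2*, stress genes of the same response, fell, by log2 fold changes of -0.34 and -0.29. Both calls were lost with counts rebuilt from TPM and without attached replicate 3 or AT-0174 replicate 1. That of *DDIT3* was also lost without attached replicate 2 or AT-0174 replicate 3, and that of *SESN2* without attached replicate 1. Without AT-0174 replicate 1, 10 were called higher, and on leaving out any 1 library except AT-0174 replicate 2 the count called lower was 0 to 2, as it was with counts rebuilt from TPM (1). In the unfolded protein response 8 of 28 rose and 2 fell, with the transcription factor *XBP1* at 0.32. In the heat shock response 8 of 22 rose and 3 fell, with the small heat shock protein *HSPB1* going from 67.8, 68.8 and 66.5 to 99.9, 96.6 and 96.3 CPM (0.53), while the near-identical *HSPA1A* and *HSPA1B* fell, by log2 fold changes of -0.13 and -0.19. The *HSPA1A* call was lost on leaving out any 1 of the 6 libraries. Of heat shock genes 5 were called higher without attached replicate 1, 4 without attached replicate 3, AT-0174 replicate 1 or AT-0174 replicate 2, and 3 without AT-0174 replicate 3.

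Cholesterol synthesis genes rose in 7 of 29 and fell in 1. Ribosome biogenesis genes rose in 18 of 45, all by less than 0.3 on the log2 scale, with *WDR43* at 0.29 and *NOB1* at 0.25; 11 were called without attached replicate 3.

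Changes of proliferation genes were mostly small in size. Of 32 S phase genes, 4 rose and 3 fell, with a median of 0.01, shares close to the 12.2% and 11.8% of all genes. Of 35 mitosis genes, 9 rose (25.7%, above the 12.2% of all genes) and 1 fell (median 0.06). Without attached replicate 3 or AT-0174 replicate 1 the count of rises was 4 in each case. The CDK inhibitor *CDKN1A* (p21) rose from 59.3, 61.8 and 57.4 to 74.6, 71.9 and 74.5 CPM (0.31), *CDKN2C* (p18) fell by 0.32, and cyclin *CCND1* rose by 0.16. In their list 5 of 17 rose (29.4%, also above 12.2%) and 1 fell, with 3 rises without attached replicate 1 or 3 or AT-0174 replicate 1 and with counts rebuilt from TPM. In the BCL2 family, which decides on apoptosis at the mitochondrion, 2 of 18 rose (11.1%) and 1 fell (5.56%), neither share above that of all genes, with *BNIP3* and *BNIP3L* (0.22) upward and the survival gene *BCL2L1* downward (-0.17).

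NF-κB genes fell in 4 of 23 and rose in 1. *NFKB2*, the p100 subunit, fell from 36.9 ± 1.14 to 30.3 ± 0.551 CPM (-0.29), the inhibitor *NFKBIA* changed by -0.27 (adjusted p = 0.0119, lost without attached replicate 3) and the adaptor *TRAF1* by -0.59, a call lost with only the 6 libraries compared, with the replicate block, with counts rebuilt from TPM and without attached replicate 1 or 2 or AT-0174 replicate 1 or 3. The kinase gene *CHUK* was called higher (0.11, adjusted p = 0.0465) but under none of the alternatives. *RELA*, the p65 subunit, was at 117, 126 and 126 and at 122, 122 and 125 CPM (0.00, adjusted p = 0.95) and *STAT3* at 84.3 ± 1.16 and 85.9 ± 2.76 CPM (0.03, adjusted p = 0.636). The chemokine gene *CCL2* had 13, 5 and 24 counts in the attached libraries and 2, 0 and 0 in the AT-0174 libraries and was under the filter. *S100A9*, a calprotectin subunit, was below 1 CPM (0.26, adjusted p = 0.668), as was *MMP2* (0.89, adjusted p = 0.25), and *S100A8* and *MMP1* were not tested, with at most 13 and 1 counts in any library.

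Among BMP and TGF-β genes 6 of 31 fell and 2 rose: the ligand *TGFB3* fell, by a log2 fold change of -0.31, the receptor *TGFBR2* by -0.91 and the latency protein *LTBP1* by -0.37, and *ID2*, a BMP target, rose by 0.25. In the Notch pathway 6 of 19 fell and 1 rose. The ligand *JAG1* measured 49.1, 49.8 and 50.9 CPM attached, 32.2, 29.5 and 31.3 CPM suspended with vehicle and 26.5, 24.7 and 28 CPM with AT-0174 (-0.92 ± 0.051, adjusted p = 2.54e-07), the ligand *DLL1* fell by 0.21 (lost without attached replicate 3), and *LFNG*, the glycosyltransferase lunatic fringe, rose by 0.58.

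Luminal and apocrine genes were called higher in 7 of 15 and lower in 2. The pioneer factor *FOXA1* rose by 0.22, the keratins *KRT7*, *KRT19* and *KRT18* by 0.24, 0.21 and 0.14, and the apocrine marker *PIP* by 0.77 from 2.66 ± 0.289 CPM. *AZGP1*, a secreted lipid-mobilizing glycoprotein, fell from 346, 338 and 363 to 303, 291 and 305 CPM (-0.22) and was also lower than in suspended vehicle cells (-0.27, adjusted p = 0.0111, lost without AT-0174 replicate 2). The other member called lower had the largest change of the list (-0.79, adjusted p = 0.0171). That call was lost with counts rebuilt from TPM and without attached replicate 3 or AT-0174 replicate 1.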

How the data were processed

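The authors deposited a table of estimated counts per gene, made with Salmon 1.10.1 after trimming with Trim Galore 0.6.7 and cutadapt 3.4 and alignment with STAR 2.7.9a to GRCh38 per the submitters' processing notes, and per-library Salmon files with estimated counts and TPM (length-scaled transcript abundance) of each transcript. Strandedness is not given in the sources used here.

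Counts were rounded to whole numbers and joined to the labels through the column names. In R 4.3.3, edgeR 4.0.16 (filterByExpr, TMM, glmQLFit, glmQLFTest) fitted all 9 libraries by condition, and contrasts were adjusted by Benjamini-Hochberg over 15528 genes. limma-voom (limma 3.58.1; the study names limma), DESeq2 1.42.0 and other alternatives were run beside it, and the calculation was tested on simulated data. No set tests were run.

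The members, the 28 gene lists and the marker lists were chosen with earlier results of these data known. Named genes were the 12 largest rises and 12 largest falls (adjusted p under 0.05, at least 50 normalized counts on average, no overlap between the 6 libraries), up to 3 called genes in each direction of each list, genes the study discusses, the 6 largest rises and falls between suspended groups, and the markers; further list members are given as examples chosen after their values were seen. Of 900 list genes, 1 (*RIGI*) was in the table only under an older symbol. Promoters come from RefSeq (GRCh38.p14), for 10722 of the genes tested, and gene positions from GENCODE release 44 on GRCh38. A few list members are not reported here by name but stay in the counts and medians. No 2 libraries of a group agreed within sampling noise. P-values of the main fit weigh a group difference against the spread of replicates within groups, estimated jointly over all 9 libraries.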

Additional observations from a re-analysis of the deposited data

How the results depend on the processing

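The count of genes called, 3724, moved by less than 1.5 times with DESeq2-type size factors (3702), limma-voom (3724), DESeq2 (3530), no filter (4205), at least 10 counts in every library (3865) and the 6 libraries alone (3416). With counts rebuilt from TPM it was 2076, 1031 higher and 1045 lower, with 241 list members called against 364, and the cause was not tested. Leaving out each library gave 2239 to 3276 genes, 1121 to 1609 higher and 1118 to 1667 lower, and 262 to 324 list members. With the replicate number as a block the count was 3677. Same-numbered libraries did not deviate together (correlation of deviations from -0.065 to 0.053), and the main fit treated the libraries as unpaired. These correlations cannot show whether same-numbered cultures were set up together. The TPM counts also gave 6 integrin and 3 Notch genes called lower and 7 ribosome biogenesis, 3 mitosis and 2 heat shock genes called higher. Their changes of named genes also moved by over 1.5 times for *TNS3* (-0.53), *PLXNB1* (-0.53), *LAMB2* (-0.50), *NFKB2* (-0.52), *ZYX* (-0.29), *ABCC3* (-0.37), *ENO2* (-0.27), *FOSB* (1.58), *LDHA* (0.11), *PGD* (0.20) and *WDR43* (0.17), and the calls of *LDHA*, *PGD*, *WDR43*, *KMO*, *P4HA2*, *BNIP3L*, *COL7A1*, *IRF1* and *GCLC* were lost. *LPP* changed sign with counts rebuilt from TPM (-0.075 against 0.29). Of 151 called genes that the naming rule gave, 109 stayed called in the same direction under all alternatives in which they were tested and 42 did not. Of the interferon calls between the suspended groups, *OAS2*, *IFIT1*, *IFIT2* and *OASL* each lost theirs with counts rebuilt from TPM and without AT-0174 replicate 1 or 2, and all but *OASL* with limma-voom. The TPM counts also ended the calls of *KLF2*, *DUSP6*, *SPRY1*, *PTHLH*, *SLC7A11*, *CLDN4*, *CDH2*, *AZGP1*, *ZYX* and *DMBT1* between those groups. In that comparison suspended vehicle libraries were not left out in turn.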

Other observations

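Genes outside the lists, chosen after their values were seen, also moved. *ATP1B1*, the β chain of the sodium pump, measured 136, 116 and 137 CPM attached and 36.9, 34.9 and 40.6 CPM in suspended AT-0174 cells, with 46.7, 41.9 and 55.8 CPM in suspended vehicle cells (-1.79, adjusted p = 1.9e-07). *AJUBA*, a LIM protein of junctions and the Hippo pathway, fell, by a log2 fold change of -1.50, the prostaglandin carrier *SLCO2A1* by -1.51, and *HEG1*, a membrane mucin, by -1.71. Between suspended groups *HEG1* was lower with AT-0174 (-0.62, adjusted p = 0.000693). *ATP1B1*, *AJUBA* and *SLCO2A1* were not called there (adjusted p = 0.16, 0.979 and 0.718). *DMBT1*, a secreted scavenger glycoprotein, fell by 1.23 from 100.4, 81.2 and 117 to 42, 37.9 and 47.7 CPM and was lower than in suspended vehicle cells as well (-0.83, adjusted p = 0.00683). Upward, the anchoring filament protein *LAD1* rose by 0.76, the sphingosine receptor *S1PR3* by 0.72 and the GTPase gene *RHOB* by 0.61. *LAD1* and *S1PR3* were also higher than in suspended vehicle cells (0.32 and 0.23, adjusted p = 0.0221 and 0.0251), and *RHOB* was not called there (adjusted p = 0.67).

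Further interferon-induced genes outside the tested list went the same way as most of its members. *DDX58*, the older symbol of *RIGI*, which senses viral RNA, fell from 21.1, 30.1 and 19 to 9.46, 12.3 and 7.93 CPM (-1.25, adjusted p = 0.000856), with 17.2, 19 and 12.7 CPM in suspended vehicle cells and attached replicate 2 again the highest. *IFITM1*, a membrane protein that blocks viral entry, was below 1 CPM in every library (0.131, 0.609 and 0.386 CPM attached and 0.0207, 0.0478 and 0.0453 CPM with AT-0174, adjusted p = 0.011, lost without AT-0174 replicate 1).

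The splicing factor gene *U2AF1* rose by 0.95 while its near-identical copy *U2AF1L5* fell by 1.21, and reads of the pair cannot be assigned with certainty.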
